A study of Mus musculus with 4 samples.

Results

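The genes described here make, copy or remove methyl groups on cytosine, and were followed in E14 mouse embryonic stem cells depleted of Kdm2b. They are Dnmt1, Uhrf1, Dnmt3a, Dnmt3b, Dnmt3l, Tet1, Tet2, Tet3, Tdg and Cxxc1. The list was set by gene name, but with earlier results of these data known, so the choice was not blind to them. A gene was read from probe sets that the platform annotation gives 1 symbol, and where it had several, from the one with the highest mean over the 4 arrays. This gave values for 9 of the 10 genes, among 19938 genes measured in all. Tdg has 4 probe sets on the array, each shared in the annotation with the pseudogene Tdg-ps2, so no value is given for it.

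The comparison had 2 groups of 2 arrays, Kdm2b KD cells and control cells, both of the E14 line from an inbred 129 strain. All cultures grew on gelatin in medium with leukemia inhibitory factor (1000 units/ml) and 15% serum. Both groups were transduced with lentivirus at 10 MOI, and puromycin selection at 2 µg/ml began 48 h after transduction. The labels do not say which vector the control cells received, which sequence targeted Kdm2b, or whether replicates were separate cultures, and p-values therefore reflect only the scatter of these arrays, which may be technical.

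Methylation of CG dinucleotides is set on new sites by Dnmt3a and Dnmt3b with the catalytically inactive cofactor Dnmt3l, and it is copied after replication by Dnmt1, which Uhrf1 brings to hemimethylated DNA. Tet1, Tet2 and Tet3 oxidise 5-methylcytosine, and the glycosylase Tdg cuts out its most oxidised forms. Cxxc1 binds unmethylated CG through a CXXC zinc finger, a domain that Kdm2b, Dnmt1, Tet1 and Tet3 also carry, and it belongs to the Set1 complexes that methylate histone H3 at lysine 4. Embryonic stem cells are known for high levels of the de novo enzymes, of Dnmt3l and of Tet1 and Tet2. The series title links Kdm2b to CpG islands, and the question put to the data here is whether the genes that write and erase DNA methylation changed in RNA level when Kdm2b was reduced.

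Because Kdm2b recognises unmethylated CG, the starts of these genes are shown first. RefSeq's promoter table of build GRCm38.p6 was read for 9 of the 10 genes, with 16 annotated starts among them. Cxxc1 is not included in these counts. In the 250 bases before each start, the motif CG, which reads the same on both strands, was counted. Over all 32851 starts in the table the median was 6 and the upper quartile 16. At the start richest in CG, 7 of these 9 genes reached 16 or more. Tet2 had 51, a count that 0.067% of all starts reach, Dnmt3a 40 (1.31%), Uhrf1 30 (5.94%), Dnmt1 26 (9.59%), Dnmt3b 21 (16.3%), Tdg 19 (19.7%) and Tet3 17 (23.5%). Tet1 had 15 (27.3%), and Dnmt3l at most 5 (55.6%). These shares set the richest start of a gene against single starts, which favours genes with several starts. The further starts had 7 and 2 for Dnmt1, 10 for Uhrf1, 38 and 15 for Dnmt3a and 4 and 3 for Dnmt3l. These counts describe sequence alone, and no binding or methylation was measured in the data used here.

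The sequences below span that range and are printed 5′ to 3′ on the gene's strand with every CG in capitals. Tet2 and Dnmt3l are the ends of the range. Dnmt3a and Uhrf1 had the largest differences among the genes measured, on the probe sets used. Dnmt3a is shown at 2 starts because its internal start is much poorer in CG (15).
Tet2 (chr3:133544391-133544640, - strand): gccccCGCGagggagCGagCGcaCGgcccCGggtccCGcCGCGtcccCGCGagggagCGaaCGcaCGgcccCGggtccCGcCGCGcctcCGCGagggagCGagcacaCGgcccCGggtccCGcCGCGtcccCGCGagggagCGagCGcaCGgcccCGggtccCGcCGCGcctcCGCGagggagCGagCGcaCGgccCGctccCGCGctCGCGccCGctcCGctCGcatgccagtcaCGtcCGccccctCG
Dnmt3a, upstream start (chr12:3806910-3807159, + strand): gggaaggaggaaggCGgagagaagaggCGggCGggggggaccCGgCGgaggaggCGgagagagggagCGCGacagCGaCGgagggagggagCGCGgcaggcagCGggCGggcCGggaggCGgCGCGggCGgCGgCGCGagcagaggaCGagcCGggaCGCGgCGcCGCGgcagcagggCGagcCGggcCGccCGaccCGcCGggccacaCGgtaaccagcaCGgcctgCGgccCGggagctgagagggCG
Dnmt3a, internal start (chr12:3891494-3891743, + strand): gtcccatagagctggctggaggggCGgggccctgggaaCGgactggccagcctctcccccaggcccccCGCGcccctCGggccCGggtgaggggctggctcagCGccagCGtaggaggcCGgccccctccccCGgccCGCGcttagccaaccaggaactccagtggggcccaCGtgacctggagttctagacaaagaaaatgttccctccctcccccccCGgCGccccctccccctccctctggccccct
Uhrf1 (chr17:56304063-56304312, + strand): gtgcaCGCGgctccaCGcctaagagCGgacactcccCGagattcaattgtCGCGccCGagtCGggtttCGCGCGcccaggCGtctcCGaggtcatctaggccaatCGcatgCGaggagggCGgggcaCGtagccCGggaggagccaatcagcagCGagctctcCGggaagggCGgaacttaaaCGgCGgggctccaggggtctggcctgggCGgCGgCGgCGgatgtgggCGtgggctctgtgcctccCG
Dnmt3l (chr10:78042037-78042286, + strand): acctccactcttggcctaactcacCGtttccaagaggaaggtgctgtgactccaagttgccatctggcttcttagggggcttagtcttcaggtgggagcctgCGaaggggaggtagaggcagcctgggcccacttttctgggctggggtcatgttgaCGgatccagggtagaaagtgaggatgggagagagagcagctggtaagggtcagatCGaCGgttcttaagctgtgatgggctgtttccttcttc

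The targeted gene was lower on both arrays of the knockdown. Kdm2b had log2 values of 9.20 and 9.19 in Kdm2b KD cells, against 10.74 and 10.64 in control cells, a level 2.82-fold lower. The values are log2 expression per probe set as deposited, and each array's median over the 35557 probe sets was 8.55 and 8.53 for Kdm2b KD and 8.49 and 8.51 for control. The stem cell identity given in the labels was checked with 12 markers, of which 0 were higher, 0 lower and 12 neither after knockdown (limma, 4 at an unadjusted p under 0.05). Of all genes, 12.2% were called and 29.8% had an unadjusted p under 0.05 in limma. The mean log2 value of the 12 markers was 12.96 on each array of Kdm2b KD cells, against 12.98 and 12.94 in control cells. Pou5f1 read 13.59 and 13.66 in Kdm2b KD cells, against 13.57 and 13.52 in control cells. The log2 fold change of Pou5f1, a core stem cell factor, was 0.08 (SE 0.064), that of Sox2 -0.14 (SE 0.06) and that of Nanog 0.14 (SE 0.061). The 4 markers at an unadjusted p under 0.05, named after their values were seen, went either way, with log2 fold changes of -0.475 for Fbxo15, 0.30 for Klf4 (adjusted p = 0.0514, limma), 0.17 for Utf1 and -0.165 for Esrrb. Of the 12 markers, 1 was called higher after quantile normalization, with dim genes removed and with an intensity trend, and 1 lower with arrays centred on their medians. At an adjusted p under 0.1 in limma, Klf4 passed as higher and Fbxo15 (0.0686) as lower. In these bulk samples fewer cells of a type and less RNA per cell cannot be told apart.

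None of the 9 measured genes passed the threshold, an adjusted p under 0.05 in limma over all 19938 genes. Of all genes, 12.2% passed, 5.00% higher and 7.19% lower. At an unadjusted p under 0.05 there were 3 of the 9, Dnmt3a, Uhrf1 and Tet3, where 29.8% of all genes lie below that value. Groups were fully separated for 5 of the 9, against 58.8% of all genes. The log2 fold changes of the 9 ran from -0.24 to 0.31, with 5 positive and 4 negative and a median of 0.025, where the median over all genes was 0.03. Their median size, regardless of sign, was 0.085, and over all genes it was 0.115. All 9 lay above 8.52, the median level of the table that served as a filter on dim genes.

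**Figure D1:**
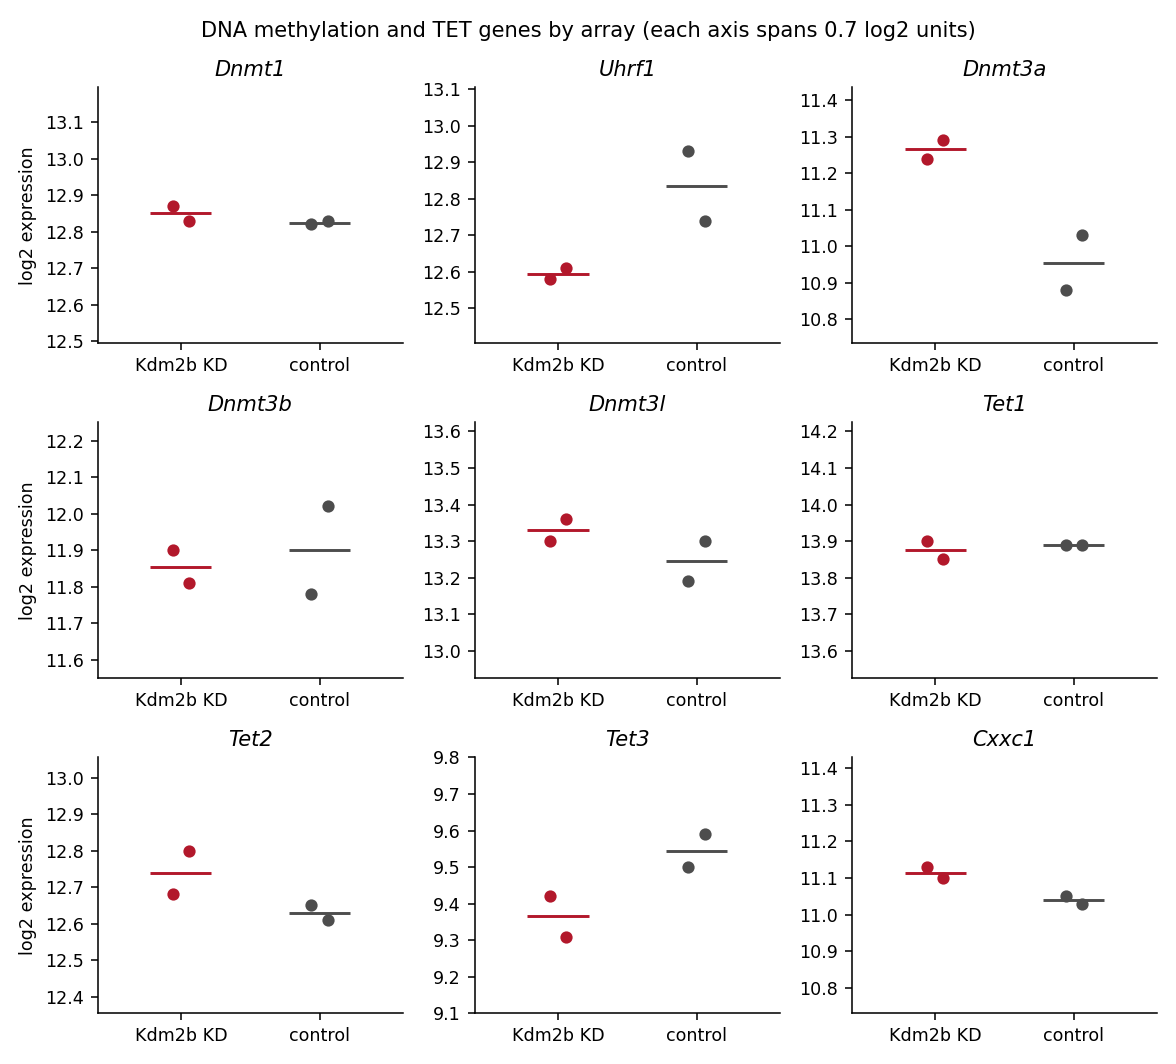
Log2 expression of the 9 measured genes on each array, with Kdm2b KD on the left (red) and control on the right (grey). Points are arrays, lines are group means (n = 2), and every vertical axis spans 0.7 log2 units. Dnmt3a, Uhrf1, Tet2, Tet3 and Cxxc1 show no overlap between the groups, and the control arrays of Dnmt3b lie on either side of both Kdm2b KD arrays.

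Among the genes that set methylation on new sites, Dnmt3a had the largest difference. Dnmt3a, the de novo methyltransferase with a role in later lineages, read 11.24 and 11.29 in Kdm2b KD cells (11.265 ± 0.035, SD, n = 2), against 10.88 and 11.03 in control cells (10.955 ± 0.11). Both Kdm2b KD arrays lay above both control arrays, by more than the gap of 0.15 between the controls. Its log2 fold change of 0.31 (SE 0.075, 95% interval 0.13 to 0.49) is a level 1.24-fold higher, and the adjusted p was 0.0512 (limma), just outside the threshold. It was 0.0401 after quantile normalization, 0.0376 with dim genes removed and 0.0456 with an intensity trend in the prior, so Dnmt3a passed under those settings and not under the one reported. It was 0.0633 with arrays centred on their medians, 0.134 with the replicate number as a block and 0.201 to 0.28 with an array left out, and did not pass there. A difference of smaller size was seen for 85.7% of all genes.

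Dnmt3b, the de novo enzyme that dominates in the early embryo, read 11.90 and 11.81 in Kdm2b KD cells, against 11.78 and 12.02 in control cells. The groups overlapped, and the gap of 0.24 between the control arrays was larger than the difference between the groups. The log2 fold change was -0.045 (SE 0.095, 95% interval -0.28 to 0.19, adjusted p = 0.789, limma). It became 0.075 without control replicate 2 but -0.165 without control replicate 1, so no direction can be read for Dnmt3b. Dnmt3l, the cofactor that stimulates both enzymes, read 13.30 and 13.36 in Kdm2b KD cells, against 13.19 and 13.30 in control cells. The lower knockdown array and the higher control array of Dnmt3l had the same value, and the log2 fold change was 0.085 (SE 0.07, 95% interval -0.086 to 0.26, adjusted p = 0.459, limma). It became 0.03 without control replicate 1 and 0.14 without control replicate 2.

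The maintenance pair differed in how closely its arrays lay together. Dnmt1, the enzyme that copies methylation to the new strand, read 12.87 and 12.83 in Kdm2b KD cells, against 12.82 and 12.83 in control cells. These values overlapped, and the log2 difference of 0.025 (SE 0.061, adjusted p = 0.817, limma) became -0.015 with arrays centred on their medians. Its 95% interval of -0.12 to 0.17 corresponds to 0.918 to 1.13 times the control level. Uhrf1, the reader of hemimethylated CG that recruits Dnmt1, read 12.58 and 12.61 in Kdm2b KD cells (12.595 ± 0.021, SD, n = 2), against 12.93 and 12.74 in control cells (12.835 ± 0.13). Both knockdown arrays were below both controls. The log2 fold change was -0.24 (SE 0.082, 95% interval -0.44 to -0.04, adjusted p = 0.115, limma), and it ran from -0.335 without control replicate 2 to -0.145 without control replicate 1, so the size for Uhrf1 rests largely on which control array is used.

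The oxidising enzymes gave small differences of either sign. Tet1, the main oxidase of stem cells, read 13.90 and 13.85 in Kdm2b KD cells, against 13.89 on each array of control cells. The log2 difference of -0.015 (SE 0.061, adjusted p = 0.896, limma) became 0.01 without knockdown replicate 2, and 6.28% of all genes had a smaller difference. Tet1 had 3 probe sets with 1 symbol, and the others gave -0.02 and -0.05 when every such probe set was fitted. The 95% interval of the probe set used, -0.17 to 0.14, leaves room for 0.892 to 1.1 times the control level.

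Tet2, which lacks the CXXC domain, read 12.68 and 12.80 in Kdm2b KD cells, against 12.65 and 12.61 in control cells. The groups did not overlap, but the gap of 0.12 between the knockdown arrays exceeded the log2 fold change of 0.11 (SE 0.07, 95% interval -0.062 to 0.28, adjusted p = 0.344, limma). Without knockdown replicate 2 the log2 fold change of Tet2 was 0.05, and without knockdown replicate 1 it was 0.17. Tet3, the oxidase known for its role in the zygote, read 9.42 and 9.31 in Kdm2b KD cells (9.365 ± 0.078, SD, n = 2), against 9.50 and 9.59 in control cells (9.545 ± 0.064). Both knockdown arrays were below both controls, and the log2 difference was -0.18 (SE 0.072, 95% interval -0.36 to -0.0023, adjusted p = 0.163, limma).

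The further probe set of Tet3 read 9.16 and 8.90 in Kdm2b KD cells, against 9.48 and 9.28 in control cells. It lay on the same side, also without overlap, and gave -0.35 in log2 units (SE 0.11, adjusted p = 0.106, limma, over every probe set with 1 symbol). The probe sets of Tet3 thus had the same direction, and neither passed the threshold.

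Cxxc1, the CG-binding subunit of the Set1 complexes, had the tightest arrays of the genes without overlap. It read 11.13 and 11.10 in Kdm2b KD cells, against 11.05 and 11.03 in control cells. The log2 fold change was 0.075 (SE 0.06, 95% interval -0.073 to 0.22, adjusted p = 0.45, limma), and it became 0.035 with arrays centred on their medians.

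**Figure D2:**
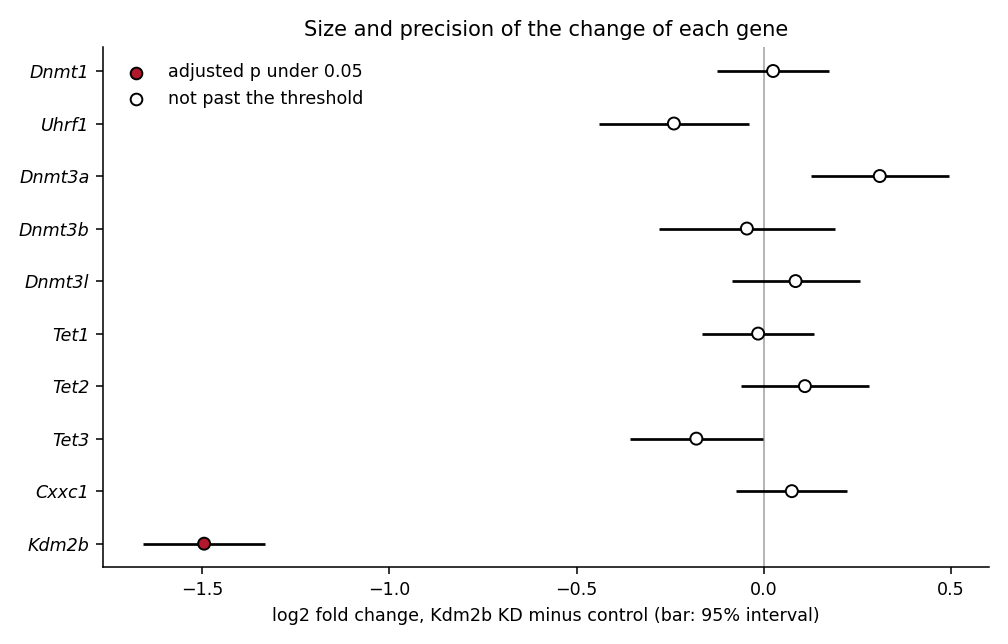
Log2 fold change (Kdm2b KD minus control) with its 95% interval from limma for the 9 genes and for Kdm2b, filled where the adjusted p was under 0.05. Kdm2b stands at -1.50, far from the intervals of the other genes, of which those of Dnmt3a, Uhrf1 and Tet3 do not include 0 before adjustment.

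The 95% intervals, which are not adjusted for the number of genes, included 0 for 6 of the 9 genes. For the probe sets used, they reached at most 1.41 times the control level upward, for Dnmt3a, and at the lowest 0.737 times, for Uhrf1. The interval of the further Tet3 probe set went lower, to -0.63 in log2 units, against -0.44 for Uhrf1. For comparison, Kdm2b stood at 0.355 times its control level.

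Genes that act with or on DNA methylation were read from 8 lists. Every gene called in these lists had its groups fully separated, which a call with 2 arrays a group nearly requires, so it adds no support. Of all genes, 58.8% were fully separated and 12.2% were called, the share to read beside each list. With any array left out, which leaves 1 residual degree of freedom, the calls did not hold. Of 9 methyl-CpG readers, 1 was higher, 0 lower and 8 neither. Mbd2, a repressor that binds methylated CG, read 10.91 and 10.89 in Kdm2b KD cells, against 10.38 and 10.37 in control cells, so that it rose by 0.52 in log2 units (SE 0.06, adjusted p = 0.0088, limma). The median over this list was -0.035.

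Of 21 partners of the methyltransferases, 1 was higher, 1 lower and 19 neither, with a median of -0.02. Dppa3, which in the oocyte and zygote holds off Uhrf1 and protects methylation, read 7.64 and 7.39 in Kdm2b KD cells, against 8.47 and 8.53 in control cells. Dppa3 fell by 0.98 (SE 0.095, adjusted p = 0.0068, limma), and by 1.05 when its 2 probe sets were averaged. Its level is low, under the filter on dim genes, and whether its probes also read related sequences was not examined. Zfp57, a zinc finger protein that keeps methylation at imprinted regions, read 13.69 and 13.72 in Kdm2b KD cells, against 13.39 and 13.45 in control cells, and rose by 0.28 (SE 0.062, adjusted p = 0.0397, limma). The adjusted p of Zfp57 was 0.058 in limma with arrays centred on their medians.

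The list of base excision and deamination holds, among others, several glycosylases, further repair genes and cytidine deaminases. It is wider than the repair route downstream of Tdg. Of its 20 genes with values, 2 were higher, 3 lower and 15 neither. This is 25.0% called, against 12.2% of all genes, with a median log2 fold change of 0.065. Apobec2, a relative of the deaminases, read 10.91 and 10.73 in Kdm2b KD cells, against 9.49 and 9.55 in control cells, and rose by 1.30 (SE 0.081, adjusted p = 0.0049, limma). The RNA-editing deaminase gene Apobec1 fell by 0.67 (SE 0.069), and the glycosylase gene Mutyh, whose enzyme removes adenine paired with oxidised guanine, fell by 0.58 (SE 0.11). The endonuclease gene Apex2 rose by 0.33 (SE 0.076), with an adjusted p of 0.0547 in limma with each array centred on its median. Neil1, another glycosylase gene, named to complete the count, fell by 0.33 (SE 0.074).

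Of 17 genes for the cofactors and partners of the TET enzymes, 0 were higher, 1 lower and 16 neither, with a median of -0.02. Idh2 encodes a mitochondrial isocitrate dehydrogenase, which makes 2-oxoglutarate, the cosubstrate of TET enzymes and of Kdm2b itself. It read 11.80 on each array of Kdm2b KD cells, against 12.21 and 12.17 in control cells, and fell by 0.39 (SE 0.06, adjusted p = 0.0168, limma). The other isocitrate dehydrogenase genes of the list were not called. Their log2 fold changes were 0.30 for Idh1 (adjusted p = 0.119, limma), -0.02 for Idh3a, -0.025 for Idh3b and 0 for Idh3g. Of 13 genes of the methyl donor cycle, 0 were higher, 3 lower and 10 neither (23.1% called), with a median of 0. Ahcyl2, a relative of the enzyme that clears S-adenosylhomocysteine, fell by 0.53 (SE 0.075). The glycine methyltransferase gene Gnmt fell by 0.44 (SE 0.079), at a low level under the filter on dim genes, and the methionine synthase gene Mtr fell by 0.30 (SE 0.063).

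Of 10 subunits of the Set1 complexes, in which Cxxc1 works, 0 were higher, 1 lower and 9 neither, with a median of 0.035. Wdr82, the subunit that links them to RNA polymerase II, read 12.71 and 12.77 in Kdm2b KD cells, against 13.27 and 13.15 in control cells. It fell by 0.47 (SE 0.071, adjusted p = 0.0159, limma). Of 7 other genes with a CXXC zinc finger 0 were higher, 0 lower and 7 neither, with 2 at an unadjusted p under 0.05 in limma. The largest values were those of Kmt2b, an H3K4 methyltransferase (0.24, SE 0.07, adjusted p = 0.0818, limma), and Cxxc4 (0.20, SE 0.073, adjusted p = 0.129, limma), which lay under the filter on dim genes.

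**Figure D3:**
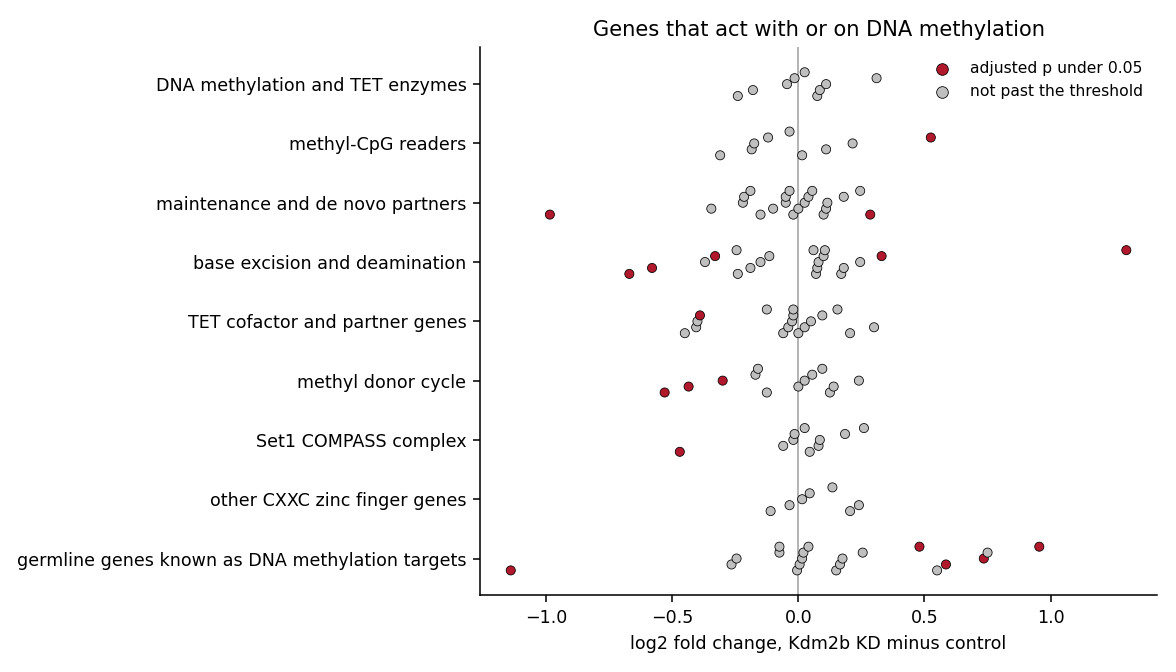
Log2 fold change (Kdm2b KD minus control) of each measured gene in the group of DNA methylation and TET enzymes (top row) and in the 8 lists of related genes. Red points passed the threshold of an adjusted p under 0.05 and grey points did not. The top row has no red point and lies between -0.24 and 0.31, while Apobec2 (1.30) and Sycp3 (-1.14) are the ends of the plot.

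Germline genes known as targets of promoter DNA methylation included calls in either direction. Among 20 with values, 4 were higher, 1 lower and 15 neither (25.0% called, against 12.2% of all genes). Their median log2 fold change was 0.095, with 14 positive and 6 negative. An unadjusted p under 0.05 in limma was seen for 11 of the 20, against 29.8% of all genes. Dazl, an RNA-binding protein gene of germ cells, read 10.31 and 9.94 in Kdm2b KD cells, against 9.12 and 9.22 in control cells, and rose by 0.96 (SE 0.13, adjusted p = 0.0121, limma). Tex19.1, a germline gene that restrains transposable elements, read 10.24 and 10.21 in Kdm2b KD cells, against 9.43 and 9.55 in control cells, and rose by 0.74 (SE 0.069). Sycp3, a gene of the synaptonemal complex, read 9.61 and 9.84 in Kdm2b KD cells, against 10.98 and 10.75 in control cells, and fell by 1.14 (SE 0.11, adjusted p = 0.0068, limma). Another synaptonemal complex gene, Syce1, rose by 0.58 (SE 0.12), and Asz1, named to complete the count, rose by 0.48 (SE 0.066) at a low level under the filter on dim genes. The methylation of these genes was not measured here.

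Markers of other cell types were read beside these results. Of 14 primitive endoderm markers, 5 were higher, 0 lower and 9 neither (35.7% called, against 12.2% of all genes). The log2 fold change was above 0 for all 14 (median 0.52). An unadjusted p under 0.05 in limma was seen for 12 of them, against 29.8% of all genes. The groups were fully separated for 13 of them, against 58.8% of all genes. The mean log2 value over the list was 10.03 and 10.37 on the Kdm2b KD arrays, against 9.63 and 9.42 on the control arrays. Gata6, a regulator of that lineage, rose by 2.12 (SE 0.26), Dab2 by 1.12 (SE 0.23) and Col4a1 by 0.54 (SE 0.076), and Sox17 and Col4a2, named to complete the count, also passed. Averaging the 2 probe sets of Dab2 gave 0.65, and the adjusted p of Sox17 was 0.0582 in limma after quantile normalization. The level of Sox17 was low, under the filter on dim genes. Of 14 fibroblast and feeder markers, 1 was higher, Twist1 (0.42, SE 0.091), 1 lower, Acta2 (-0.41, SE 0.092), and 12 neither, with a mean over the list of 8.73 and 8.70 on the Kdm2b KD arrays, against 8.69 and 8.70 on the control arrays. The part of such cells in the values of the DNA methylation genes was not tested.

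**Figure D4:**
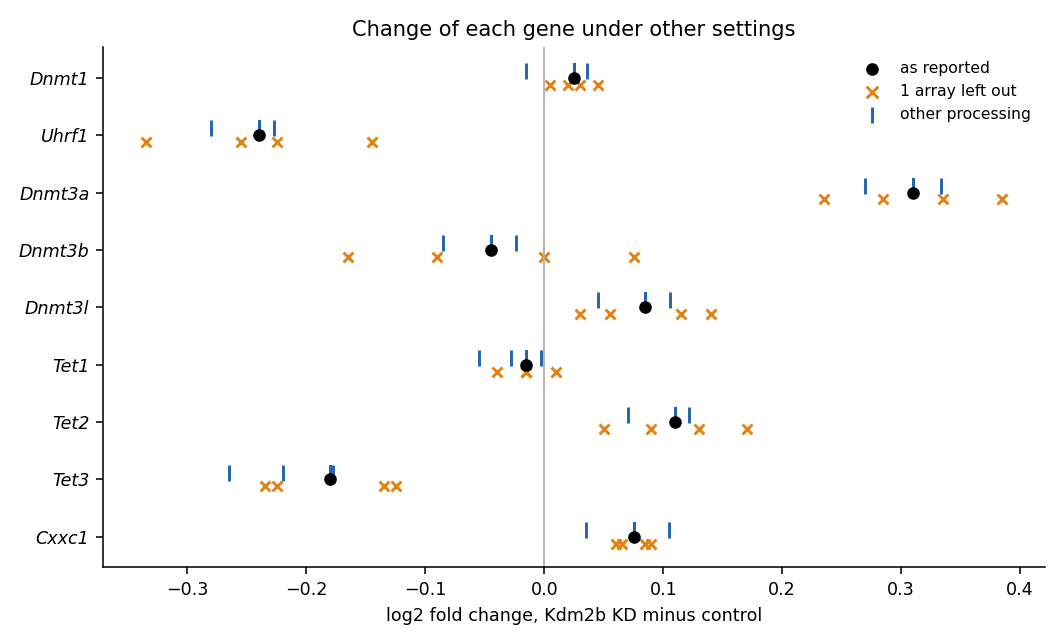
Log2 fold change (Kdm2b KD minus control) of the 9 genes as reported (black), with 1 array left out (orange crosses) and under the other processing settings (blue ticks). Dnmt3a, Dnmt3l, Tet2 and Cxxc1 stay above 0 and Uhrf1 and Tet3 below it in every setting run, while Dnmt1, Dnmt3b and Tet1 have values on both sides.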

How the data were processed

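RNA from 2 Kdm2b KD and 2 control samples was hybridised to Affymetrix MoGene-1_0-st-v1 arrays. The values are log2 expression, deposited by the authors for each probe set. Per the submitters' processing notes the authors used Affymetrix Expression Console. How probes were summarised and arrays scaled is not given in the sources used here, and the log2 scale was inferred from the range of values. Of 35557 probe sets, 21789 had 1 symbol in the platform annotation, 1621 several and 12147 no entry. Entrez IDs matched 21698 of the 21789 to RefSeq, which changed 0 symbols.

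Kdm2b KD and control were fitted in limma 3.58.1 under R 4.3.3 (a single group term, two-sided p-values with Benjamini-Hochberg correction across 19938 genes, prior of 3.9 degrees of freedom). Standard errors and 95% intervals are limma's moderated ones, and SD is that within a group. The number of arrays limits the precision. Of 169 list entries, 157 were measured. The members, lists and alternatives were chosen with earlier results of these data known. Named genes are the members, Kdm2b, up to 4 called genes of each list (3 for marker lists), or 2 as values where a list of related genes had none, and Pou5f1, Sox2 and Nanog. Neil1, Idh1, Idh3a, Idh3b, Idh3g, Asz1, Sox17, Col4a2, Fbxo15, Klf4, Utf1, Esrrb and the neighbours in the closing section were named after their values were seen. The rule on genes with the most similar pattern named none, since no member passed.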

Additional observations from a re-analysis of the deposited data

How the results depend on the processing

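The count of members called higher, 0 as reported, was 1 (Dnmt3a) after quantile normalization, with dim genes removed, with a prior that follows intensity and at an adjusted p under 0.1, and 0 under the other settings. The count called lower was 0 under every setting run. Over all genes, 997 were higher and 1434 lower as reported, against 1920 and 2236 at an adjusted p under 0.1. With each array centred on its median there were 841 higher and 1866 lower. The calls did not hold with any array left out, where 1 residual degree of freedom remains, and the reason was not tested. The replicate block also left 1 residual degree of freedom. It gave 0 higher and 0 lower, with 5411 genes at an unadjusted p under 0.05 in limma. Under the block the adjusted p of Dnmt3a was 0.134. Deviations of arrays with the same replicate number correlated at 0.095 across genes, and the labels do not say that a number marks a shared batch, so the arrays share only a number.

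Settings that change only the test (the block, the dim filter, the priors, the threshold and the set of probe sets tested) leave each member's log2 fold change as it is. Under those that can move it, 3 of the 9 members changed sign. Dnmt1 became -0.015 after centring of the arrays. With 1 array left out, Dnmt3b ran from -0.165 to 0.075 and Tet1 from -0.04 to 0.01. The cause was not tested. The adjusted p of Dnmt3a ran from 0.0376 to 0.28 over its settings. With 2 arrays a group, the 95% intervals of 6 of the 9 members included 0.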

Other observations

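The genes next to each measured member were read as values, taking the nearest measured gene on either side in the RefSeq order of GRCm38.p6. Of 18 such neighbours, 1 was higher, 1 lower and 16 neither, which is 11.1% called against 12.2% of all genes. S1pr2, a sphingosine-1-phosphate receptor gene beside Dnmt1, read 11.17 and 11.14 in Kdm2b KD cells, against 10.85 and 10.89 in control cells, so that it rose by 0.28 in log2 units (SE 0.061, adjusted p = 0.0375, limma). With each array centred on its median its adjusted p was 0.0531. Dtnb, the dystrobrevin gene beside Dnmt3a, read 11.06 and 11.09 in Kdm2b KD cells, against 11.36 and 11.35 in control cells, and fell by 0.28 (SE 0.06, adjusted p = 0.0375, limma), so it lay on the other side of 0 from Dnmt3a. Dnmt3aos, which lies within Dnmt3a in the table, read 8.56 and 8.61 in Kdm2b KD cells, against 8.44 and 8.37 in control cells, and differed by 0.18 in log2 units (SE 0.064, adjusted p = 0.129, limma). Its values and those of Dnmt3a may not be separate measurements where probes lie in the overlap.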
